A study of Mus musculus with 4 samples.

Results

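The Tag17 clone is a set of 61 mouse keratinocytes in the Diff_MK library that carry the same lineage tag. A cell was kept if at least 1000 genes were detected and at most 15% of its unique molecular identifiers (UMIs, each standing for 1 captured RNA molecule) came from mitochondrial genes. Its cell barcode was joined to the tag library on the first 16 bases, and a tag was assigned if it had at least 3 counts and at least 2 times the counts of the next tag. Of 7569 cell barcodes, 6912 were kept and 4747 were assigned to 128 clones. Tag17 was the 19th largest clone and held 1.29% of the assigned cells (exact binomial 95% interval 0.984% to 1.65%), against 539 cells in the largest. The members were thus chosen by their tag counts and not by gene expression, and the comparison with other clones was proposed with results of these data in view. The other 4686 assigned cells formed the comparison group.

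The study sequenced single cells of the keratinocyte line MK together with their lineage tags. In both cultures, MK and Diff_MK, the cells had been treated with Dox (doxycycline, which switches on the inducible labelling), and GFP-positive, tag-labelled cells were taken by flow cytometry. The labels do not spell out what the prefix Diff stands for or how long the culture had been kept. Each culture gave 1 RNA library and 1 tag library, so no comparison here has replicate libraries, and every interval printed covers counting error only.

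A lineage tag is a short DNA sequence that a cell passes to its daughters, so that cells with the same tag can be grouped as candidate descendants of 1 founder. Keratinocytes are the main cells of the epidermis. Basal keratinocytes divide and make the keratin pair Krt5 and Krt14. On differentiation they leave the cell cycle, switch keratins, and make the proteins and lipids of the cornified envelope. Wounded or stressed epidermis makes Krt6a, Krt6b, Krt16 and Krt17 together with chemokines that attract neutrophils.

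The tag sequence is what defines the clone, so it is shown with its nearest neighbours in the tag list and with the tag of the largest clone. Capitals mark the bases between 2 constant flanks, which is where these tags differ.
Tag17: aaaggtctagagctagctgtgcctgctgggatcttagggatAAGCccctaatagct
Tag19: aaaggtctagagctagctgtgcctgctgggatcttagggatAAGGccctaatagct
Tag26: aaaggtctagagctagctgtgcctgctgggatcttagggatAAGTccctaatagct
Tag3: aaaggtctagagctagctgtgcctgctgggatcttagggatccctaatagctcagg
Tag17 carries 4 bases between the flanks, and the tag of the largest clone, Tag3, carries none. Counting from the first base printed, Tag19 differs from Tag17 by C45G and Tag26 by C45T. These were the 2 Diff_MK tags a single substitution away. Junctions of 4 bases were common, at 11 of the 33 Diff_MK tags whose junction could be read. Whether all carriers of so short a junction descend from 1 founder was not measured.

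Tag counts in the clone were high and dominated by Tag17. The leading tag had between 49 and 683 counts per cell, with a median of 215, and took a median of 36.5% of the cell's tag counts. Its counts were a median of 5.86 times those of the next tag. The cell closest to the limit inside the rule had 427 counts of Tag17 against 196 of the next tag. Just outside it was a cell with 2 counts against 1, and 7 of the 68 kept cells in which Tag17 was the largest tag did not meet the rule. The single-base neighbours contributed little: Tag19 took a median of 0.698% of the tag counts in the clone and 0.669% in other cells. Another tag held at least 10% of the tag counts in 1 cell of the clone (1.64%) and in 417 of the other cells (8.90%). These values describe how the cells were chosen.

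Depth was alike in the clone and in the other cells. The median cell had 14993 UMIs in the clone and 15023.5 in the other cells, and the group totals were 949065 and 73620590 UMIs. The median number of genes was 3862 against 3659, and the median mitochondrial share was 6.81% against 6.0%. None of the clone's cell barcodes was among the 9 kept barcodes shared by the 2 RNA libraries. Of 20 basal keratinocyte markers, 17 had UMIs in the clone, and the list summed to 10859 CPM against 18116 CPM in the other cells. All 8 fibroblast markers were at 0 UMIs, and the summed levels of the melanocyte, immune, endothelial and erythroid lists were 3.16, 2.11, 7.38 and 2.11 CPM (UMI counts scaled to a fixed group total, defined below), against 2.28, 6.06, 6.09 and 1.71 CPM in the other cells. The hair follicle and sebaceous list, which shares genes with epidermis, summed to 186 CPM against 207 CPM. The Merkel cell list, which holds Krt8 and Krt18, summed to 22.1 CPM against 90.4 CPM.

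Gene by gene, the clone had more genes at higher than at lower levels. Levels are CPM, the UMIs of a gene summed over a group and scaled by the group's total UMIs, and 7624 autosomal genes reached 10 CPM in at least 1 group. Of these, 973 (12.8%) were at least 1.5-fold higher in the clone and 527 (6.91%) at least 1.5-fold lower. At 2-fold the counts were 196 (2.57%) and 164 (2.15%). With the added condition that the exact 95% interval of the ratio left out 1, the 1.5-fold counts were 711 higher and 296 lower genes, 9.33% and 3.88% of the 7624 tested. The median gene was itself 0.10 higher on the log2 scale, and scaling on that median in place of total UMIs reversed the balance, with 615 genes 1.5-fold higher and 720 lower. List medians below are therefore to be read against this shift of 0.10.

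By rule, the 15 highest genes were ranked by their UMI ratio after adding 10 counts to both sides, among genes at 50 CPM or more. Cxcl3, a chemokine that attracts neutrophils, was at 705 CPM in the clone and 174 CPM in the other cells, a ratio of 4.06 (95% interval 3.75 to 4.38). Its 669 UMIs came from 50 of the 61 cells. Ada, adenosine deaminase, was at 118 CPM against 26.4 CPM, a ratio of 4.48 (3.67 to 5.42), with UMIs in 45 cells.

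Arhgdib, best known from blood cells, was at 353 CPM against 116 CPM (ratio 3.04, 2.72 to 3.40) and had UMIs in 59 of 61 cells. Ifi27, an interferon-inducible gene, was at 90.6 CPM against 26.8 CPM (ratio 3.38, 2.69 to 4.19). Cdh2, N-cadherin, was at 51.6 CPM against 18.7 CPM (ratio 2.76, 2.03 to 3.68). These 3 genes lie on chromosomes 6, 12 and 18. The secreted protease inhibitor Slpi was at 865 CPM against 377 CPM (ratio 2.30, 2.14 to 2.46), and the cytokine Il1a at 202 CPM against 91.3 CPM (ratio 2.22, 1.91 to 2.56).

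Hmga2, an architectural chromatin protein of proliferating and embryonic cells, was at 381 CPM against 170.1 CPM (ratio 2.24, 2.01 to 2.49). Pcna, the sliding clamp of DNA replication, was at 301 CPM against 134 CPM (ratio 2.25, 1.99 to 2.53). The kinase gene Src had a ratio of 2.52, the tRNA methyltransferase subunit Trmt6 of 2.66, the sodium pump subunit Fxyd2 of 2.59, the transcription factor subunit Taf4b of 2.59 and the mitochondrial ribosomal protein Mrps35 of 2.23. Sprr2d, a precursor of the cornified envelope, was at 537 CPM against 249 CPM. Without the added counts, the 15 ratios ran from 2.15 for Sprr2d to 4.48 for Ada.

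The 15 lowest genes by the same rule included 2 keratins. Krt8, a simple epithelial keratin, had 0 of 949065 UMIs in the clone, against 70.5 CPM in the other cells. Entered at a floor of 3 counts (3.16 CPM), it was 22.3-fold lower. The upper limit of the exact 95% interval of its log2 ratio was -4.18. Krt16, a keratin of wounded epidermis, was at 61.1 CPM against 556 CPM, 9.10-fold lower (95% interval 7.03 to 12). Ctla2a, which resembles the inhibitory propeptide of cathepsins, was at 25.3 CPM against 167 CPM, 6.60-fold lower (4.43 to 10.3). Serpinb9b, of the serpin branch that inhibits granzymes, was at 80.1 CPM against 304 CPM, 3.80-fold lower (3.03 to 4.82). No other gene among the 15 was as far down as these 4.

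The chemokine Ppbp, whose gene lies close to Cxcl3 on chromosome 5, went the other way from it, at 47.4 CPM against 159.9 CPM, 3.37-fold lower (2.52 to 4.63). The start positions of the 2 genes in mm10 are 90768518 and 90786103. Defb1, an antimicrobial defensin, was 3.33-fold lower, the hypoxia-responsive gene Ndrg1 3.37-fold and the secreted chaperone Clu 3.36-fold. Lgals7, a galectin of stratified epithelia, was at 291 CPM against 828 CPM (2.85-fold lower). The surface protein Ly6d was at 460.5 CPM against 1210.4 CPM (2.63-fold lower), and the fatty acid carrier Fabp5 at 1019.9 CPM against 2379 CPM (2.33-fold lower). Plac8, Sprr2k, Serpinb6c and Prss23 completed the list with values of 2.56, 2.52, 2.71 and 2.47-fold lower.

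**Figure D1:**
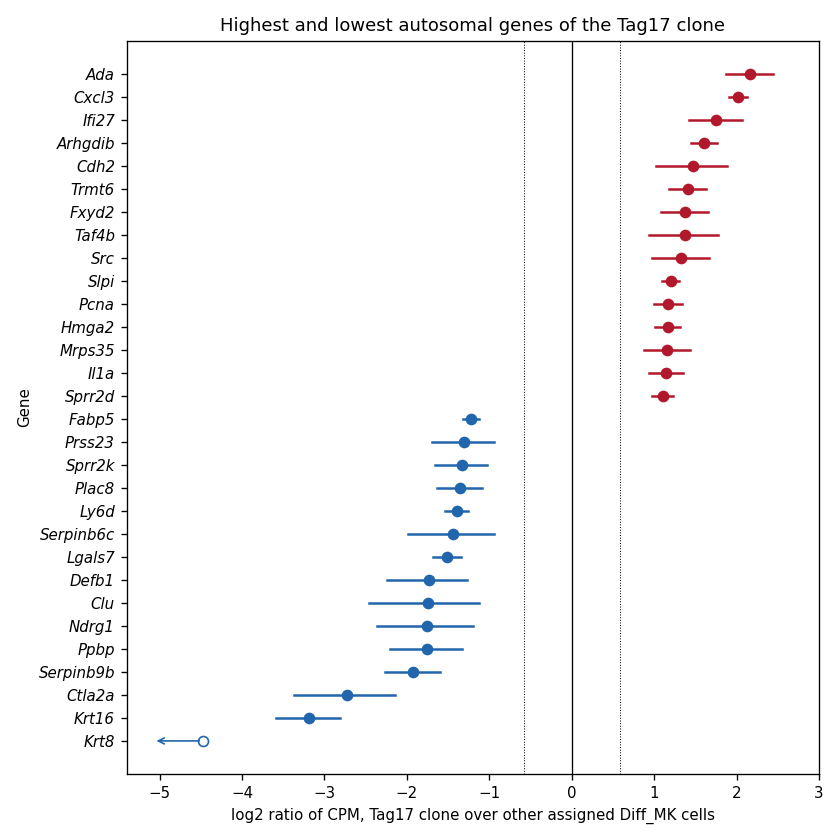
log2 ratio of CPM (Tag17 clone over other assigned Diff_MK cells) for the 15 highest and 15 lowest genes by the naming rule. Points are ratios and bars exact 95% counting intervals, and dotted lines mark 1.5-fold. The open point with an arrow is Krt8, which had 0 UMIs and is drawn at the floor of 3 counts. All 30 genes lie beyond the 1.5-fold lines.

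How far clones differ from each other is the only spread that a single library holds, and clones are not replicates. Among the 50 clones of 20 or more cells, 5 of the 15 highest genes (Cxcl3, Hmga2, Src, Cdh2 and Mrps35) were at their highest level in Tag17, and all 15 were within the top 10. For Cxcl3 the other clones ran from 30.2 to 652 CPM with a median of 157, below the 705 CPM of Tag17. Ada, in contrast, ranked 3rd, since other clones reached 125 CPM. Slpi ranked 6th, with other clones between 31.5 and 2131 CPM.

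Of the 15 lowest genes, 4 were at their lowest in Tag17, counting Krt8, which it shared with other clones at 0. Ctla2a ran from 31.5 to 1502 CPM in the other clones and was at 25.3 CPM in Tag17. Plac8 and Serpinb9b were also below every other clone, by a small margin: 117.0 against 117.8 CPM for Plac8 and 80.1 against 80.8 CPM for Serpinb9b. Lgals7 stood well inside the range, with 17 clones lower than Tag17, whose own value was 291 CPM. Over all genes at 50 CPM or more, Tag17 had 253 genes (8.57%) at least 1.5-fold higher and 104 (3.52%) lower than the rest, 357 in all. That sum ranked 2nd among the 25 clones of 50 or more cells, after Tag4 with 388 and before Tag25 with 260. Tag4 and Tag25 had 51 cells each, and smaller clones pass a fold limit more often by counting error.

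**Figure D2:**
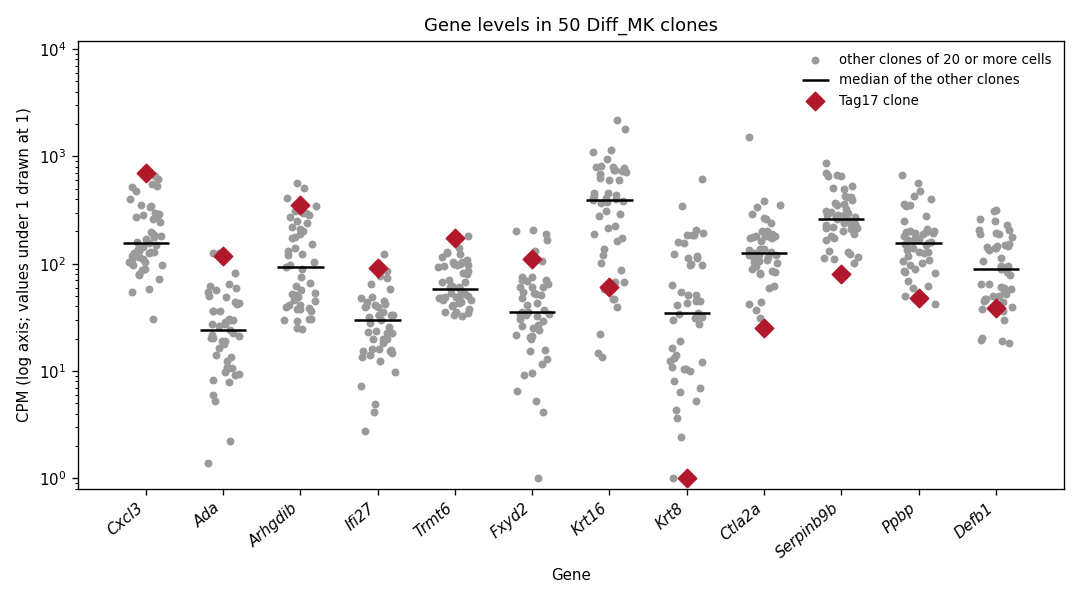
CPM on a log axis of 12 genes in the 50 Diff_MK clones of 20 or more cells; diamonds are the Tag17 clone, grey points the other clones and bars their median, with values under 1 drawn at 1. For Cxcl3 the diamond (705 CPM) lies above every other clone, and for Ctla2a (25.3 CPM) below every other clone.

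Keratins were lower as a group. Of 25 listed autosomal keratin genes, 15 reached 5 CPM in at least 1 group. In the clone 14 of these 15 were lower and 12 at least 1.5-fold lower, with a median log2 ratio of -0.99. Over the 9133 autosomal genes at 5 CPM or more, 9.03% were 1.5-fold lower and 14.3% were 1.5-fold higher, and 59.7% had a ratio above 1. Keratin levels summed to 11362 CPM in the clone and 21669 CPM in the other cells, 1.91-fold lower, and this sum ranked 45th of 50 clones.

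The keratins of different roles moved unequally. The basal pair Krt5 and Krt14 was 2.07-fold (interval 1.96 to 2.18) and 1.83-fold (1.79 to 1.88) lower, at 1441 against 2984 CPM and at 6784 against 12432 CPM. Among the stress keratins, Krt6a was 2.18-fold lower (1445 against 3154 CPM) and Krt16 9.10-fold lower, but Krt17 was at 524 CPM against 465 CPM, a ratio of 1.13 (1.03 to 1.23). Krt17 was the exception to the list, and its ratio fell on either side of 1 across the settings tried. Of the other simple epithelial keratins, Krt18, the partner of Krt8, also had 0 UMIs, against 7.59 CPM in the other cells, and Krt7 was 2.98-fold lower. Krt78, of the suprabasal layers, was 3.48-fold lower on 6 UMIs in the clone. Krt19 was 1.99-fold lower, at 603 CPM against 1197 CPM. Krt15, a keratin of resting basal and follicle cells, was at 424 CPM against 637 CPM (1.5-fold lower), inside the range of other clones, 21.9 to 1961 CPM. Its direction reversed when the other cells were reweighted to the clone's cell cycle make-up, as described next.

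Genes of the G1/S and G2/M lists were higher. Of 39 genes of G1/S and DNA replication, all measured, 33 were higher and 13 at least 1.5-fold higher, with a median log2 ratio of 0.48. Their summed level was 2410 CPM against 1830 CPM, 3rd highest of 50 clones. Mcm2, part of the replicative helicase, was at 65.3 CPM against 36.9 CPM (ratio 1.77), and the replication initiation factor Gins2 at 51.6 CPM against 23.9 CPM (ratio 2.16). Both lie in higher chromosome stretches described below. The 9 members of the list inside stretches had a median of 0.71 and the other 30 had 0.41. Of 52 genes of G2/M, 48 were higher, 8 at least 1.5-fold, with a median of 0.34. Bub1, a spindle checkpoint kinase, had a ratio of 2.31, Ckap2l of 2.02, Aurka of 1.93 and Ube2c of 1.62; these 4 all lie in the stretch of chromosome 2 described below. Replication-dependent histones were split, with 8 of 15 measured members above 1 and 7 below. Their median was 0.21 but their summed ratio 0.98 (0.90 to 1.07). Inhibitors of cyclin-dependent kinases went both ways: Cdkn1a was at 163 CPM against 234 CPM (1.43-fold lower), Cdkn1b at 23.2 CPM against 39.7 CPM (1.71-fold lower) and Cdkn2d at 47.4 CPM against 28.3 CPM (ratio 1.68). The list of CDK inhibitors and p53 targets had 11 of 25 measured members above 1 and a median of -0.05.

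A cell's share of UMIs from these 2 lists was used to place it in 1 of 4 ranges, each list being split at the median of assigned cells. Of the genes used, 9 of 39 in G1/S and 12 of 52 in G2/M lay in the chromosome stretches described below. The ranges are therefore not independent of those stretches. Both shares were high in 59.0% of the clone's cells and 41.7% of the others, and both were low in 22.95% and 42.2%. When the other cells were weighted to the clone's make-up over these ranges, the keratin median moved from -0.99 to -0.60, and the Krt15 log2 ratio from -0.59 to 0.13. The Sprr and Lce list moved from -0.86 to -0.40, the granular list from -0.51 to -0.25 and the hypoxia list from -0.29 to -0.06. The sterol list, at -0.52, and the spinous list, at -0.47, moved less.

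Differentiation lists were lower with exceptions. Of 10 measured spinous genes (the layer above the basal one), 9 were lower and 5 at least 1.5-fold lower, with a median of -0.61. Among members at 20 CPM or more that median was -0.36. Of 14 measured granular and cornified genes, 10 were lower and 7 at least 1.5-fold, but Sprr2d and Sprr2e were at least 1.5-fold higher. By summed level the granular list differed little, at 2533 CPM against 2782 CPM (ratio 0.91), 32nd of 50 clones. The Sprr and Lce list summed to 1570 CPM against 1901 CPM (ratio 0.83), 31st, and the spinous list to 3099 CPM against 5928 CPM (ratio 0.52), 41st. Asprv1, a protease of the granular layer, had 5 UMIs in the clone, 5.27 CPM against 45.6 CPM (8.66-fold lower, interval 3.71 to 26.7). Sprr1b was at 759 CPM against 1199 CPM (1.58-fold lower), and Spink5, an inhibitor of epidermal proteases, was alike at 979.9 against 942 CPM. In the Ly6 and uPAR family of surface proteins, 10 of 12 measured members were lower and 5 at least 1.5-fold lower, among them Psca at 120.1 CPM against 282 CPM. Psca and Ly6d lie in the lower stretch of chromosome 15 described below. The 4 members of the family inside stretches had a median of -0.94 and the 8 outside had -0.26. Sprr2, Ly6, serpin, prolactin and histone genes have near-identical copies, and no source used here says how reads shared between copies were assigned, which leaves values of single members uncertain.

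Sterol and fatty acid synthesis was lower across the pathway. Of 29 measured genes, 26 were lower, 15 at least 1.5-fold lower and none 1.5-fold higher, with a median log2 ratio of -0.59. The summed level was 1408 CPM against 2325 CPM, 1.65-fold lower and 48th of 50 clones. Sqle, squalene epoxidase, was at 28.4 CPM against 72.8 CPM (2.56-fold lower, 1.76 to 3.89), below every other clone of 20 or more cells. Cyp51, Acat2 and Fdps, which act before and after it in the pathway, were 2.67, 2.54 and 2.28-fold lower. The stearoyl-CoA desaturase Scd2 was 1.49-fold lower, at 224 CPM against 334 CPM.

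The chemokine and interferon lists had higher medians with members on both sides, and the antimicrobial list a lower one. Of 14 measured chemokines and cytokines, 11 were higher and 7 at least 1.5-fold higher, while 3 were at least 1.5-fold lower. Their summed level of 3355 CPM against 1955 CPM (ratio 1.72, 1.66 to 1.78) was the 3rd highest of 50 clones. Besides Cxcl3 and Il1a, Cxcl5 was at 1491 CPM against 974 CPM (ratio 1.53). Of 17 measured interferon-stimulated and MHC class I genes, 13 were higher and 9 at least 1.5-fold, with a median of 0.63. That median was 0.28 among members at 20 CPM or more, where the abundant Ifitm2 and Ifitm3 had ratios of 0.99 and 1.02 by summed UMIs. Samhd1, an antiviral enzyme that breaks down deoxynucleotides, was at 76.9 CPM against 34.5 CPM (ratio 2.23). The high ratio of Ifit1 rested on 6 UMIs from a single cell. Of 15 measured antimicrobial proteins and alarmins, 10 were lower, with a median of -0.24 and a sum of 10055 CPM against 12119 CPM (ratio 0.83, 45th of 50 clones).

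The ribosome, glycolysis and hypoxia lists had medians nearer to that of all genes than the keratin and sterol lists. Of 29 ribosome biogenesis genes, 26 were higher with a median of 0.31, among them Polr1a (ratio 2.01) and Nop56 (ratio 1.62). Both lie in chromosome stretches described below. The 5 members inside stretches had a median of 0.70 and the 24 outside had 0.25. Cytosolic ribosomal protein genes were lower in 47 of 53 cases by small amounts, with a median of -0.16 and none past 1.5-fold. Glycolysis genes had a median of -0.21, with 11 of 15 lower. Hypoxia-responsive genes outside glycolysis had 13 of 19 lower, with a median of -0.29. They summed to 823 CPM against 1076 CPM, 48th of 50 clones. Bnip3l, a receptor for removal of mitochondria, was at 84.3 CPM against 156 CPM (1.85-fold lower) and below every other clone. The placental prolactin family lay far from the median of all genes, at a median of -2.03. All 4 of its measured genes were at least 1.5-fold lower, summing to 21.1 CPM against 95.5 CPM. This sum ranked 44th of 50 clones, inside the range of the other clones, 6.78 to 253 CPM. The medians of 7 lists close to 0 changed sign under median scaling, those of the EGF receptor, laminin, oxidative phosphorylation, amino acid response, TGF-beta, epidermal transcription factor and imprinted lists, and are given no direction here.

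Adhesion and signalling lists had single members far from a median near that of all genes. Among the desmosome genes, the plaque protein Dsp was at 368 CPM against 627 CPM (1.70-fold lower) and the cadherin Dsg2 at 29.5 CPM against 13.8 CPM (ratio 2.13, 1.41 to 3.10). The integrin subunit Itgb6 was 2.71-fold lower, at 12.6 CPM against 34.3 CPM, while the basal subunits Itga6 and Itgb1 had values of 220.2 against 242 CPM and 375 against 334 CPM. The laminin chain Lamb3, part of the basement membrane under basal keratinocytes, was at 152 CPM against 89.7 CPM (ratio 1.69).

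Transcription factors of the AP-1 family pointed in both directions. Fosl1 had a ratio of 1.93 (1.49 to 2.46) and was higher than in every other clone of 20 or more cells, and Fos was 1.83-fold lower, at 196 CPM against 359 CPM. Foxq1, a forkhead factor, was at 33.7 CPM against 10.6 CPM (ratio 3.19, 2.16 to 4.54), and Id1, an inhibitor of helix-loop-helix factors that lies in the chromosome 2 stretch described below, was at 510.0 CPM against 286 CPM (ratio 1.78). The insulin-like growth factor binding proteins were also split, with Igfbp2 2.20-fold lower and Igfbp7 at 746 CPM against 480.3 CPM (ratio 1.55). The small heat shock protein Hspb1, at 1886 CPM against 3181 CPM, was lower than in every other clone, whose values began at 2088 CPM.

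**Figure D3:**
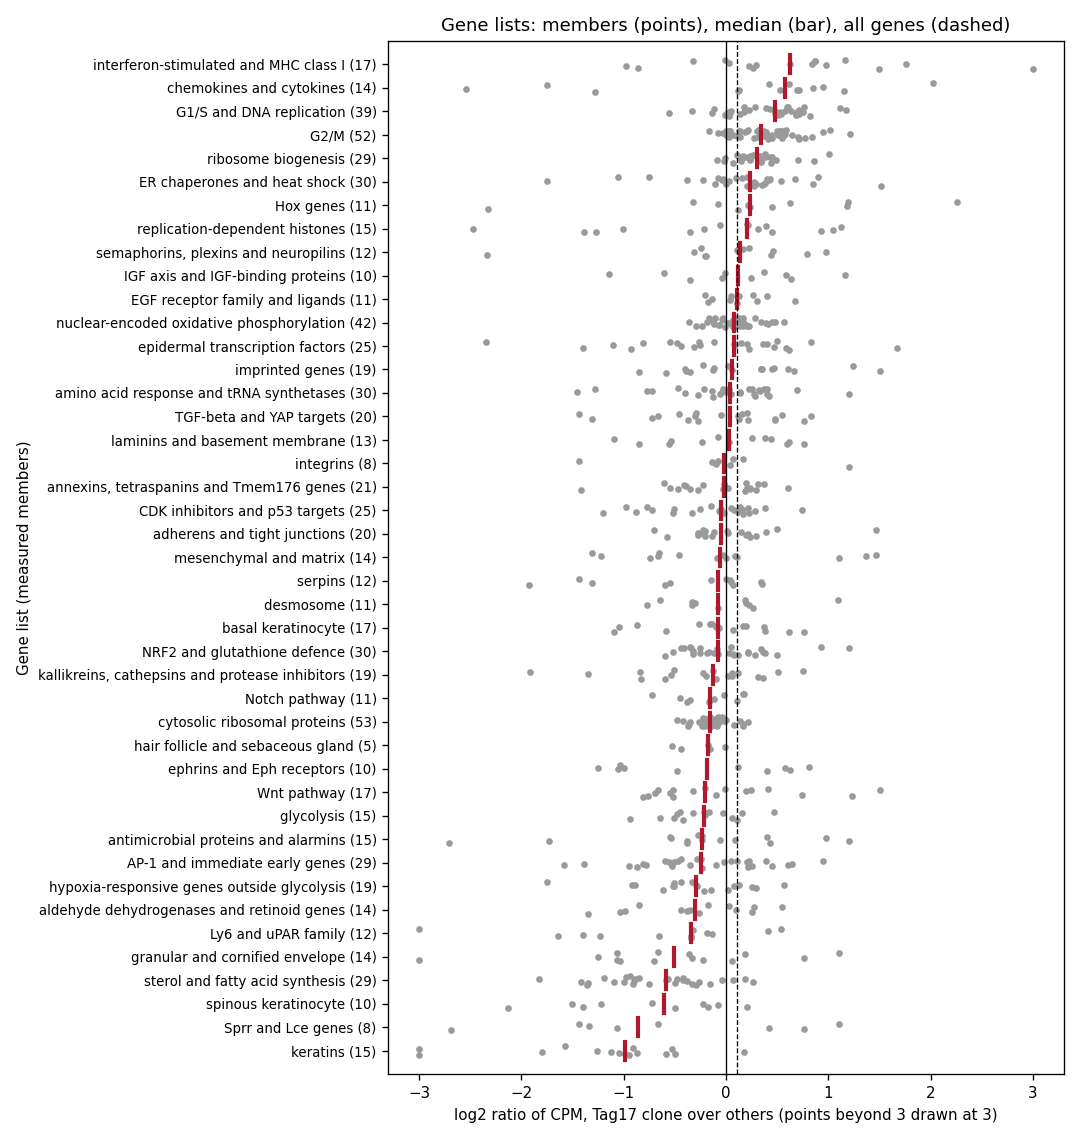
log2 ratio of CPM (Tag17 clone over other assigned Diff_MK cells) for members (points) of the 43 gene lists with 5 or more measured members, with the list median (bar) and the median of all genes (dashed). Keratins lie lowest with a median of -0.99 and the interferon and MHC class I list highest with 0.63.

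Ordering the genes along the chromosomes showed long stretches in which neighbours were higher or lower together. Positions came from the GENCODE M21 annotation of mm10, in which 32158 of 32285 gene identifiers were found. For 6780 autosomal genes at 10 CPM or more in both groups, a running median over 51 neighbours was taken. It had no value for the first and last 25 genes of each chromosome, so no stretch could reach these genes. A stretch was called where at least 25 genes in a row had a running median 0.2 or more away from the median of all genes. Tag17 had 10 such stretches with 1166 genes, the most of the 25 clones of 50 or more cells; Tag28 came next with 491 and 4 clones had none. The limits of the stretches were set with these values in view, so their counts are a description.

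The strongest stretch lay on distal chromosome 2, from Blvra to Atp5e (chr2:127070665-174464105). Of its 213 genes, 202 were higher in the clone and 120 at least 1.5-fold higher, with a median log2 ratio of 0.68. The genes summed to 28453 CPM in the clone and 18888 CPM in the other cells. Of the 15 highest genes, 6 lay in it (Ada, Trmt6, Src, Slpi, Pcna and Il1a), where 4.23% of the 2838 candidate genes did. None of the 15 lowest genes did. The stretch and the ranking of genes were drawn from the same ratios, so this overlap was to be found by construction and is a description.

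Further stretches lay on 6 chromosomes. On chromosome 8 the part from 88.2 to 123.5 Mb was higher, with a median of 0.48 over 156 genes, and the part from 72.3 to 84.0 Mb with 0.35 over 30 genes. Chromosome 6 was higher over most of its length, with 0.37 from 28.2 to 82.8 Mb and 0.39 from 84.6 to 125.0 Mb. On chromosome 1 the part from 119.7 to 143.7 Mb stood at 0.39. Lower stretches lay on chromosome 12 (17.7 to 111.4 Mb, -0.22, 148 of 190 genes lower) and chromosome 15 (37.9 to 100.6 Mb, -0.24, 163 of 201 genes lower). Weaker lower stretches lay on proximal chromosome 8 (-0.14 over 54 genes) and on chromosome 18 (-0.10 over 39 genes). DNA copy number was not measured in these files.

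Some other clones shared parts of this profile. Tag55 and Tag18 exceeded Tag17 on distal chromosome 2, with medians of 0.84 and 0.82, and Tag18 also on distal chromosome 8 with 0.70. Tag58, with 36 cells, had the same direction as Tag17 in all 10 stretches. Its medians were 0.43 and 0.31 on chromosome 6, 0.35 on chromosome 1, -0.27 on chromosome 12 and -0.29 on chromosome 15, and it was less raised on distal chromosome 2 (0.37) and distal chromosome 8 (0.25). On the later chromosome 6 stretch Tag17 ranked 1st of the 50 clones, and on chromosome 15 it ranked 49th, above Tag58 alone. On chromosome 12 it ranked 42nd. The proximal chromosome 8 and chromosome 18 stretches ranked 32nd and 31st, within the middle of the clones. These ranks compare medians that were not centred on each clone's own median over all genes, which was 0.10 for Tag17. They therefore mix that shift with position.

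**Figure D4:**
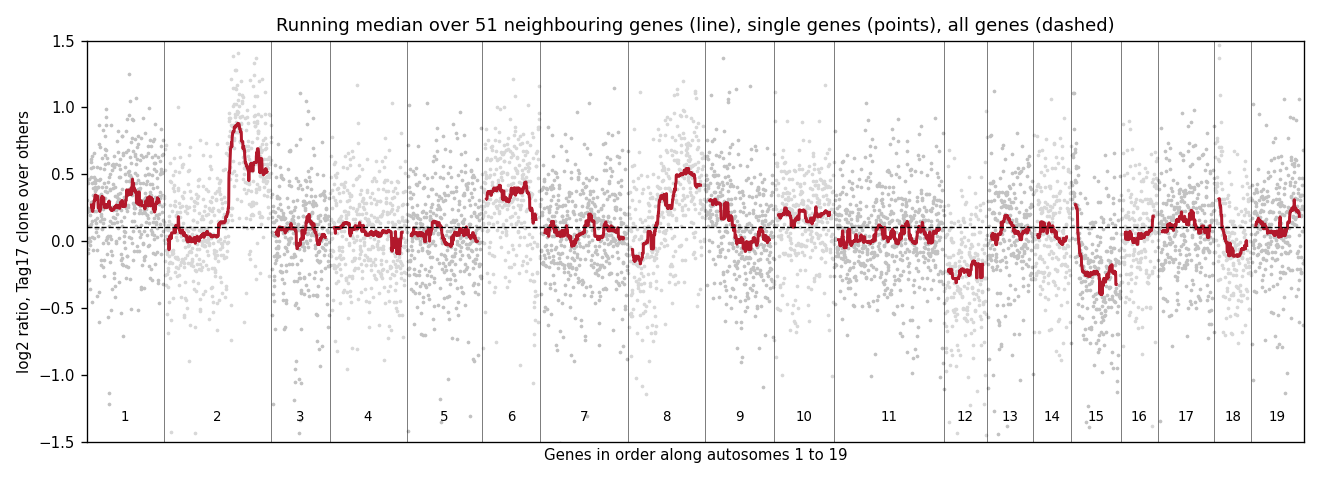
log2 ratio of CPM (Tag17 clone over other assigned Diff_MK cells) for genes in order along autosomes 1 to 19; grey points are single genes (those beyond 1.5 are not shown), the line is the running median over 51 genes and the dashed line the median of all genes (0.10). The line peaks in distal chromosome 2, is raised across chromosome 6 and distal chromosome 8, and lies low in chromosomes 12 and 15.

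Gene lists and positions overlapped in part. Of the 39 G1/S genes, 9 lay in a stretch and had a median of 0.71, while the other 30 had 0.41. Of the 52 G2/M genes, 12 lay in a stretch with a median of 0.56, and the other 40 had 0.32. The interferon and MHC list had a median of 1.07 over its 4 members inside stretches and 0.29 over the 13 outside. For the sterol list the median outside stretches was -0.58, close to that of the whole list. No measured keratin lay inside a stretch. All 8 measured keratins on chromosome 15, in the gene cluster just beyond the end of the lower stretch, were lower, with a median of -1.20, and 6 of the 7 on chromosome 11, which had no stretch, were lower with a median of -0.87.

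The chromosome 2 stretch could be followed cell by cell. It supplied a median of 2.85% of a cell's UMIs in the clone, with a range from 1.45% to 3.93%, against a median of 1.75% (0.248% to 5.33%) in the other Diff_MK cells. Of the 61 cells, 59 lay above the median of the others. The difference was thus present in nearly every cell of the clone, although the 2 ranges overlapped. In MK cells with the same tag the median was 2.28%, and in other MK cells it was 2.34%. Of the 26 MK cells with the same tag, 23 lay above the median of the other Diff_MK cells, as did 4210 of the 4534 other MK cells.

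**Figure D5:**
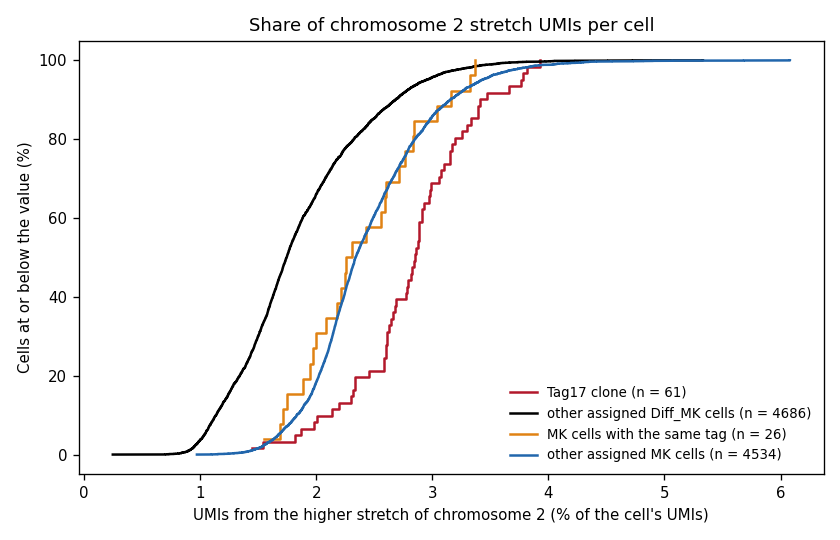
Cumulative share of cells (percent) against the percent of each cell's UMIs that came from the higher stretch of chromosome 2, for the Tag17 clone, other assigned Diff_MK cells, MK cells with the same tag and other assigned MK cells. The Tag17 curve (median 2.85%) lies to the right of the other Diff_MK cells (median 1.75%), and the medians of the 2 MK sets (2.28% and 2.34%) lie between them, while the curves cross at the tails.

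The MK library offered the same measure in cells the rule did not use. Its tag Tag30 was identical to Tag17 over all 56 bases and was assigned to 26 MK cells, 0.570% of 4560 assigned MK cells (interval 0.373% to 0.834%) and the 35th largest of 899 MK clones. Those 26 cells held 398829 UMIs. Compared with the other assigned MK cells, 52 genes at 50 CPM or more (1.73%) were at least 1.5-fold higher and 94 (3.12%) lower. Whether the MK and Diff_MK carriers of this sequence come from the same founder was not tested.

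Taken as ratios to the other MK cells, the MK cells with this tag showed little of the Diff_MK clone's profile. These ratios do not describe levels, because other MK cells differed from other Diff_MK cells in many of these genes, as given below. Of the 15 highest genes, 7 had a ratio above 1 in MK and none reached 1.5-fold. Cxcl3 was at 594 CPM in the tagged MK cells against 645 CPM in other MK cells, and Ada at 25.1 CPM against 43.4 CPM. Of the 15 lowest genes, 7 had a ratio below 1 and 2 were at least 1.5-fold lower. Krt8 was the lowest of them, with 17.6 CPM against 79.5 CPM (ratio 0.22, 0.089 to 0.455), and Krt16 lay in the other direction, with 371 CPM against 202 CPM. The sterol list had an MK median of -0.15, the keratin list of -0.02 and the chemokine list of -0.12. All 10 stretches had MK medians between -0.12 and 0.03, and on distal chromosome 2 the median was -0.04 with 84 of 201 genes higher.

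Levels of the same genes in the remaining MK cells are given for scale. Of the 15 highest genes of the Tag17 clone, 11 were at least 1.5-fold higher in other MK cells than in other Diff_MK cells, which was so for 5.95% of the 2838 candidate genes. Of the 15 lowest, 12 were at least 1.5-fold lower in other MK cells, against 4.30% of the candidates. The other Diff_MK cells serve as the denominator of both ratios, so the 2 counts are not independent. Hmga2, for example, was at 381 CPM in the clone, 170.1 CPM in other Diff_MK cells and 485 CPM in other MK cells, and Fabp5 at 1019.9, 2379 and 1206 CPM. Without a fold limit, other MK cells exceeded other Diff_MK cells for 12 of the 15 highest genes and lay below them for 13 of the 15 lowest. Among the lowest, Krt8 and Ppbp were the exceptions: Ppbp was at 47.4 CPM in the clone, 159.9 CPM in other Diff_MK cells and 470.2 CPM in other MK cells.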

How the data were processed

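Single-cell RNA libraries (10x Genomics Single Cell 3′ v3) and tag libraries made by the CITEseq protocol were deposited for 2 cultures, per the labels' protocols. Cell Ranger 6.1.2 and mm10 are named in the submitters' processing notes, and no further settings are stated there. The matrices deposited by the authors give raw UMI counts, whole numbers for each gene or tag in each cell. The labels put 1 library in each of 4 groups. No test was run, because cells and clones are not replicates.

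UMIs were summed over the Tag17 cells and over the other assigned cells and divided by the group total (CPM). Ratios carry exact conditional binomial 95% intervals. A gene with 0 UMIs enters at the floor of 3 counts. Unmapped tag counts (10.1% of Diff_MK tag counts) were left out. Doublets were not called, and cells with a second tag or the most UMIs were instead left out as alternatives. Named genes were the 15 highest and 15 lowest as described, leaving out predicted (Gm, Rik), mitochondrial and ribosomal protein genes. From each of 51 lists the 2 most abundant and the 3 most different members, at 20 CPM or more, were added, with every such keratin. The members and lists were chosen with earlier results of these data known. Genes named outside this rule (Krt18, Ifit1 and the low-level genes of the closing section) were chosen after their values were seen. The ratio and stretch calculations were tested on simulated data. Calculations used Python 3.11.15, numpy 2.4.6, scipy 1.17.1 and pandas 2.3.3, and tag sequences came from the deposited tag lists.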

Additional observations from a re-analysis of the deposited data

How the results depend on the processing

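Beside the settings described above, 10 alternatives in scaling, cell filters, tag assignment, weighting and depth were run. All 30 highest and lowest genes stayed past 1.5-fold under each of them. The 197 named genes gave 1951 values, since cell cycle genes were not run under cell cycle reweighting. Of these, 1808 stayed within counting error and 142 moved beyond it without changing direction at 1.5-fold or more. Ratios of 24 genes fell on both sides of 1, but Krt15 was the only one of them that differed by 1.5-fold or more, and its log2 ratio was 0.13 after cell cycle reweighting. No paired analysis was possible because each group has 1 library, and no replicate could be left out.

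The counts of genes depended on the minimum level, the scaling and the depth. At least 1.5-fold higher genes numbered 615 with median-ratio scaling, 1381 after thinning cells to 7500 UMIs, 1307 at 5 CPM, 619 at 20 CPM, 253 at 50 CPM and 2173 with only 10 UMIs required. At least 1.5-fold lower genes numbered 826 after thinning cells to 7500 UMIs (60 and 4401 cells left), 825 at 5 CPM, 263 at 20 CPM, 104 at 50 CPM, 3209 with only 10 UMIs required and 296 with an interval that left out 1. At least 2-fold higher genes numbered 120 with median-ratio scaling, 399 after thinning, 334 at 5 CPM, 104 at 20 CPM, 36 at 50 CPM and 950 with only 10 UMIs required. At least 2-fold lower genes numbered 340 after thinning, 311 at 5 CPM, 76 at 20 CPM, 34 at 50 CPM and 2506 with only 10 UMIs required. The 50 CPM and interval settings were chosen after seeing the data.

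Every stretch kept its direction in each setting run. With median-ratio scaling the stretch medians that moved were 0.58 on chromosome 2, 0.27 and 0.29 on chromosome 6, 0.38 on distal and -0.24 on proximal chromosome 8, -0.32 on chromosome 12, -0.34 on chromosome 15 and -0.21 on chromosome 18. With other clones weighted equally chromosome 2 stood at 0.57. After cell cycle reweighting distal chromosome 8 stood at 0.42, chromosome 15 at -0.30 and chromosome 18 at -0.18. Chromosome 12 stood at -0.29 after thinning, and chromosome 15 at -0.29 with a leading tag of 10 counts and 5 times the next (47 clone cells). A narrower window of 31 genes and a wider one, also chosen after seeing the data, gave 10 stretches with 1131 genes and 6 with 990. Counting error limits single genes: 1 UMI in the clone is 1.05 CPM.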

Other observations

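Beneath the level at which genes were named, 8 autosomal genes between 10 and 50 CPM in the Tag17 clone were at least 4-fold higher than in the other Diff_MK cells. They were chosen after their values were seen. H60b, a ligand of the natural killer cell receptor NKG2D, had 12 UMIs in 10 of the 61 cells, 12.6 CPM against 0.435 CPM (ratio 29.1, interval 13.6 to 58.0), and no other clone of 20 or more cells exceeded 5.48 CPM. Capsl had 21 UMIs in 18 cells, 22.1 CPM against 2.72 CPM (ratio 8.15, 4.93 to 12.8), with other clones up to 16.9 CPM. Rgs16, a regulator of G protein signalling, had 10 UMIs in 9 cells (ratio 13.8, 6.30 to 27.4). In MK cells with the same tag the counts were 0, 2 and 6 UMIs for H60b, Capsl and Rgs16. The upper limits of their MK ratios, 6.69, 2.81 and 4.25, lay below the lower limits in Diff_MK, and these intervals cover counting error only. The same held for Bicd1, but the intervals overlapped for Rasgrp1, Casp4, Mpdz and 2310034G01Rik. All 8 genes were picked for high Diff_MK ratios, so this contrast is a description. Rgs16 itself was at 15.0 CPM in the tagged MK cells, against 10.5 CPM in the clone and 7.76 CPM in other MK cells.

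Several named genes with high ratios lay a few Mb apart outside the called stretches. On proximal chromosome 18, Taf4b (start 14783245), Cdh2 (start 16588877) and Dsg2, a desmosomal cadherin (start 20558074), had ratios of 2.59, 2.76 and 2.13. Of the 4 other measured genes between them 3 were higher, with a median log2 ratio of 0.21. On distal chromosome 6, beyond the last called stretch, Arhgdib (start 136923655) and Mrps35 (start 147042764) had ratios of 3.04 and 2.23. Of the 18 measured genes between them 12 were higher, with a median of 0.29. For comparison, 59.7% of all autosomal genes at 5 CPM or more had a ratio above 1, with a median of 0.10, and the median over chromosome 6 was 0.34. Because no stretch could reach the last 25 genes of a chromosome, lying beyond the last stretch says little there. Whether either set of neighbours is raised was not tested. Ifi27 went against its surroundings: it was 3.38-fold higher inside the lower stretch of chromosome 12. In the same way Asprv1, 8.66-fold lower, lay inside a higher stretch of chromosome 6.

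Imprinted genes, which are active from the copy of a single parent, summed to 2525.6 CPM in Tag17 against 2149 CPM in the other cells. The next highest of the 50 clones was level with it at 2525.6 CPM. Blcap had a ratio of 2.37 and Gnas, the most abundant named member, of 1.26, and both lie in the chromosome 2 stretch. The 13 measured members outside stretches had a median log2 ratio of 0.02.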
